A study of Mus musculus with 138 samples.

Results

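The Msx and Dlx homeobox genes described here were Msx1, Msx2, Dlx1, Dlx2, Dlx3, Dlx5 and Dlx6. These 7 genes were chosen by name, from the 55487 genes in the count tables. They were followed across the frontal, coronal, sagittal and lambdoid sutures of the mouse skull, the fibrous joints between the flat bones of the vault. The embryos were wild-type C57BL/6J mice at an earlier or a later embryonic day, E16.5 or E18.5. No group carried a mutation or received a treatment. The suture mesenchyme (SM), the unmineralised tissue between the bones, and the osteogenic fronts (OF), the growing bone edges on each side of it, were cut from frozen sections by laser capture and sequenced as bulk RNA. At each stage the frontal suture gave SM and frontal bone OF, the sagittal suture SM and parietal bone OF, the coronal suture SM with separate frontal and parietal OF, and the lambdoid suture SM with separate interparietal and parietal OF. That made 20 groups of 5 libraries. Each suture and stage came from 5 embryos, so the SM and OF of a suture shared their embryos, whereas sutures and stages did not. A further 18 were second libraries of coronal embryos and regions, 16 were complete dissected sutures at E18.5 labelled as controls for normalization, and 4 were coronal single-cell libraries, each a pool of several embryos. A laser-captured region held every cell type inside its outline, and in such bulk samples fewer cells of a type and less RNA per cell cannot be told apart.

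Msx and Dlx proteins are transcription factors that bind DNA through a homeodomain. Msx1 and Msx2 lie downstream of bone morphogenetic protein (BMP) signalling and act mainly as repressors, keeping skeletal progenitors from differentiating. Both are needed for the growth of the skull vault, and MSX2 variants in people cause either premature suture fusion or gaps in the parietal bones. Dlx genes sit in the genome as convergently transcribed pairs, Dlx1 with Dlx2 and Dlx5 with Dlx6, while Dlx3 is paired with Dlx4. Dlx3, Dlx5 and Dlx6 are activators of bone genes in osteoblasts, Dlx3 is also a regulator of the epidermis and hair follicle, and Dlx1 and Dlx2 are best known from the first pharyngeal arch and from forebrain interneurons.

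Of the 7 genes, 6 reached 1 CPM (counts-per-million, scaled to the library's total) in more than 10% of the 100 first libraries and were tested, and Dlx2 did not. Each first library held between 7305627 and 34518477 counted reads, with a median of 14244957. Levels are given as CPM scaled by trimmed mean of M values (TMM), which compares a gene between libraries. For comparing genes with each other, RPKM values are given, which are CPM divided by the kilobases of exon. The median RPKM over the 100 libraries was 36.6 for Dlx5, 16.8 for Dlx3, 13.3 for Msx2, 3.8 for Msx1 and 2.43 for Dlx6. Dlx1 was at 0 counts in 53 of the 100 libraries and reached 1 CPM in 14. Dlx2 was at 0 in 80 and never passed 0.66 CPM.

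Every one of the 5 abundant genes was laid out differently over the 20 groups. Msx1 and Msx2 both had their highest group mean in the sagittal SM at E16.5, at 53.4 ± 5.72 CPM (SD, n = 5) and 160.5 ± 20.3 CPM (SD, n = 5). Their lowest groups were both OF, the coronal parietal OF at E18.5 for Msx1 (3.81 ± 1.23 CPM, SD, n = 5) and the frontal OF of the frontal suture at E18.5 for Msx2 (22 ± 3.86 CPM, SD, n = 5). The 3 Dlx genes had the opposite layout, each with its highest mean in a parietal OF and its lowest in an SM. Dlx3 ran from 213 ± 56 CPM (SD, n = 5) in the coronal parietal OF at E16.5 down to 0.173 ± 0.162 CPM (SD, n = 5) in the sagittal SM at E16.5. Dlx5 ran from 141 ± 17 CPM (SD, n = 5) in the sagittal parietal OF at E16.5 down to the frontal SM at E16.5, with a median of 17.6 CPM and libraries from 12.5 to 26.8 CPM. Dlx6 ran from 13.4 ± 3.09 CPM (SD, n = 5) in the coronal parietal OF at E16.5 to 0.731 ± 0.413 CPM (SD, n = 5) in the frontal SM at E18.5. With the 20 group means in order, neighbouring groups overlapped in their library values at every step for Msx1 and Msx2, and at all but 1 step for each of the 3 Dlx genes. For Dlx3 that step fell between the lowest OF mean, 34.6 CPM in the frontal suture at E18.5 (libraries from 12.9 CPM), and the highest SM mean, 4.68 CPM in the coronal suture at E16.5 (libraries up to 8.75 CPM), although 1 lambdoid SM library reached 14.1 CPM. For Dlx5 it fell between the sagittal SM at E16.5 (63.3 CPM) and at E18.5 (50.8 CPM). For Dlx6 it fell between the lambdoid SM (1.83 CPM) and the frontal SM (0.938 CPM), both at E16.5.

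**Figure D1:**
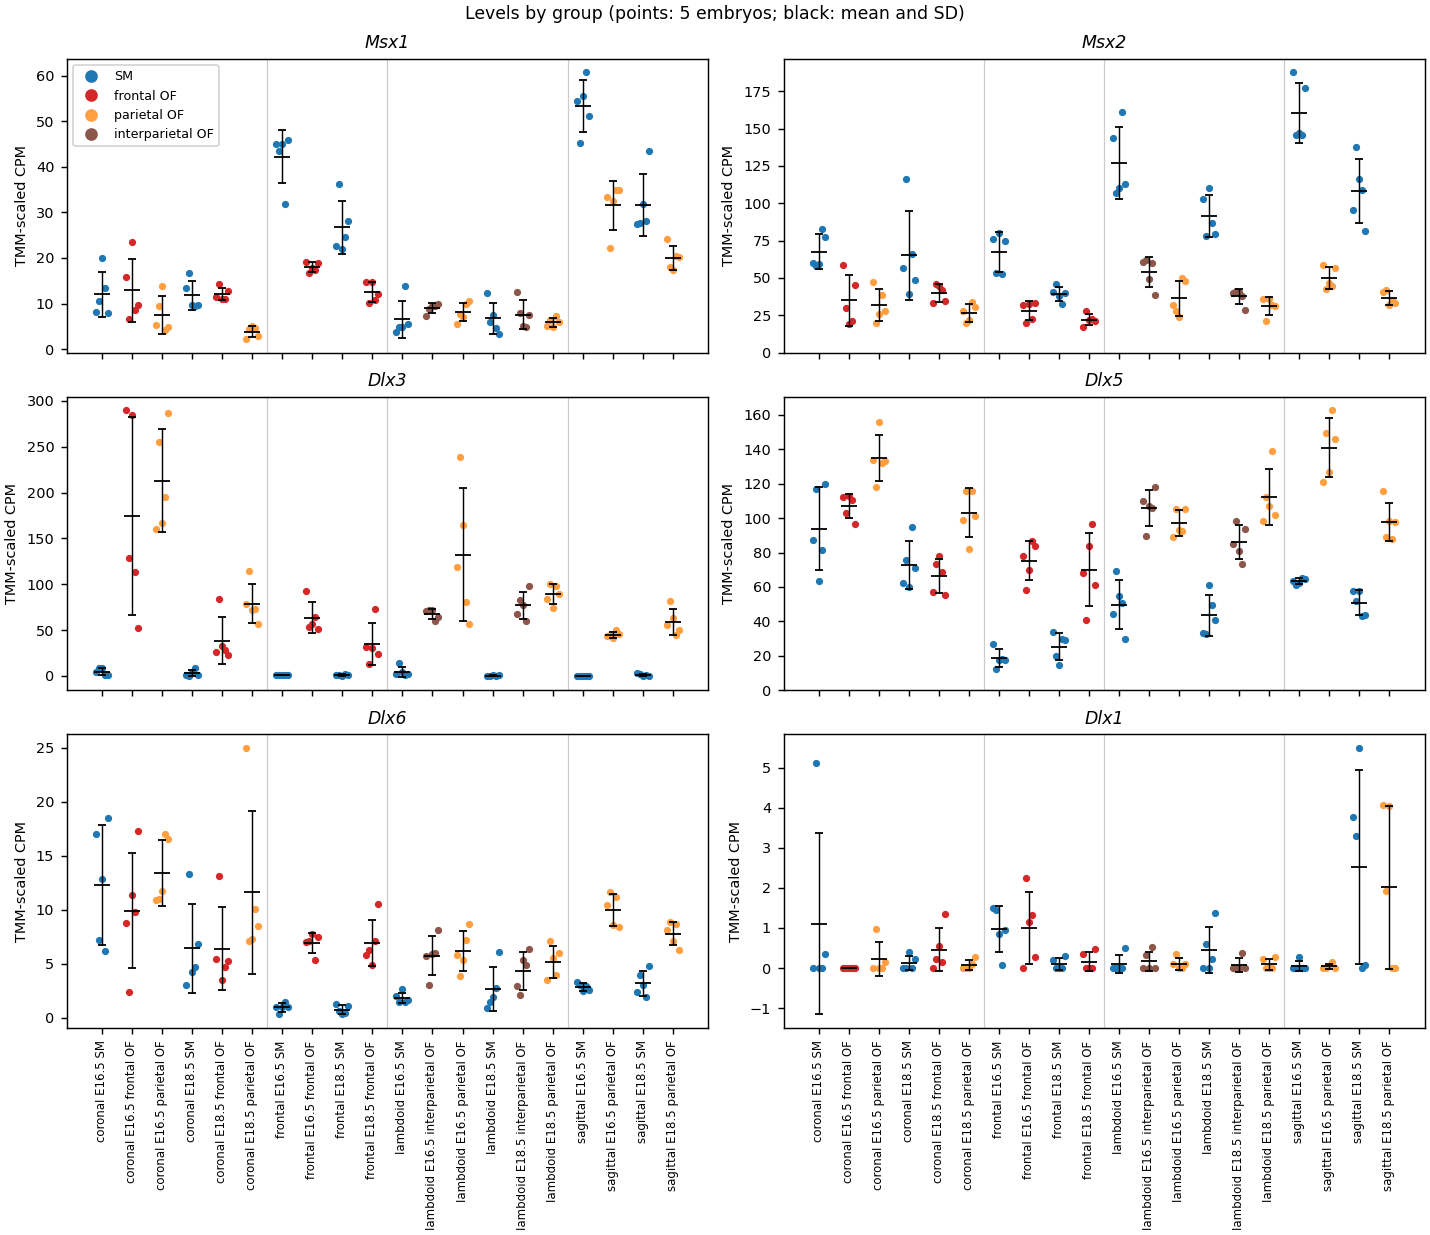
Levels of 6 genes in the 100 first laser-captured libraries, in TMM-scaled CPM (vertical axis), over the 20 groups (horizontal axis). Points are the 5 embryos of a group and black marks are the group mean and SD. Dlx3 points of the SM groups lie near 0, whereas its 12 OF group means run from 34.6 to 213; Msx2 is highest in the sagittal and lambdoid SM at E16.5.

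The first comparison asked which of the genes separated the SM from the OF beside it. Pooled over 12 pairs of SM and OF, 48 of 72 gene tests passed an adjusted p of 0.05 (66.7%), 19 with the SM higher and 29 with the SM lower. Over all 19768 genes tested in the same 12 pairs, 19% passed, 8.12% with the SM higher and 10.8% with the SM lower, and by pair the share ran from 3.48% (coronal frontal OF, E18.5) to 33.2% (coronal parietal OF, E16.5). Msx2 was higher in the SM in 12 of 12 pairs and Dlx3 lower in 12 of 12. Dlx5 was lower in 10, Dlx6 lower in 7, Msx1 higher in 6 and Dlx1 higher in 1. Adjusted p-values are two-sided and come from the quasi-likelihood test of edgeR, with Benjamini-Hochberg adjustment over all genes tested. Log2 differences are given ± SE. Where a result is given without an embryo or replicate, that replicate number was left out of every group at once. The fit and the adjustment were then repeated.

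Msx2, on chr13:53466884-53473074 of mm10 (minus strand), was the more abundant of the 2 Msx genes in the laser-captured libraries. In the lambdoid suture at E16.5 the 5 embryos gave 144, 107, 110.4, 161 and 113 CPM in the SM against 32.1, 27.9, 24.1, 50 and 47.9 CPM in the parietal OF and 60.4, 62.2, 49.5, 60.3 and 38.4 CPM in the interparietal OF. No OF library reached the lowest SM library. The difference from the parietal OF, 1.82 ± 0.20 on the log2 scale (edgeR adjusted p = 4.4e-11), was the largest of the 12 for this gene. In the sagittal suture at E16.5 the SM held 188, 146, 147, 146 and 177 CPM and the parietal OF 58.7, 42.4, 46.3, 44.7 and 56.6 CPM, again with no overlap, and the difference was 1.69 ± 0.19 (edgeR adjusted p = 2.7e-10). At E18.5 the same pairs gave 1.56 ± 0.20 for the lambdoid parietal OF (edgeR adjusted p = 3.3e-09) and 1.55 ± 0.19 for the sagittal OF (edgeR adjusted p = 2.5e-09). The median difference over the 12 pairs was 1.25.

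The coronal suture at E18.5 held the smallest Msx2 difference. Its SM libraries were at 56.4, 116, 39.4, 65.7 and 48.9 CPM and its frontal OF libraries at 33.4, 45.9, 44.9, 41.8 and 34.2 CPM. The second embryo's SM stood far above the rest, the third embryo's SM lay below its own OF, and the groups overlapped. The difference was 0.64 ± 0.19 (edgeR adjusted p = 0.045, higher in 4 of 5 embryos). It lost its call when any of embryos 1, 2, 4 and 5 was left out (edgeR adjusted p between 0.066 and 0.46), and without embryo 2 it came to 0.42. With each suture fitted by itself it stayed at 0.64 but also lost its call (edgeR adjusted p = 0.63). The frontal OF of the coronal suture at E16.5 was the other pair whose libraries overlapped, with a difference of 1.05 ± 0.19 (edgeR adjusted p = 3e-05, higher in 5 of 5 embryos). In the other 10 pairs the Msx2 groups did not overlap.

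Msx1, on chr5:37820485-37824583 (minus strand), separated SM from OF at some sutures and not at others. In the frontal suture at E16.5 its SM libraries held 45.1, 43.4, 44.9, 31.9 and 45.8 CPM and its OF libraries 19.2, 16.7, 17.7, 17.4 and 18.8 CPM. These did not overlap, and the difference was 1.22 ± 0.24 (edgeR adjusted p = 0.00019), followed at E18.5 by 1.09 ± 0.25 (edgeR adjusted p = 0.0012). In the sagittal suture, which had the highest Msx1 levels on both sides, the SM was higher by 0.77 ± 0.24 at E16.5 (edgeR adjusted p = 0.016) and 0.65 ± 0.24 at E18.5 (edgeR adjusted p = 0.039), without overlap. The second of these had an adjusted p of 0.063 without the embryo block and lost its call without embryo 2, 3, 4 or 5 (edgeR adjusted p 0.077, 0.16, 0.052 and 0.2), and the first lost it without embryo 2 or 3 (0.068 and 0.06). In the lambdoid suture Msx1 was low everywhere, with library values from 3.32 to 13.8 CPM over both stages and all regions. Its 4 lambdoid differences ran from -0.58 to 0.07 and none passed the test.

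In the coronal suture Msx1 depended on which bone was taken. At E18.5 the SM held 13.5, 16.7, 9.71, 9.54 and 9.59 CPM, the frontal OF 11.5, 14.2, 11, 11.1 and 12.8 CPM, and the parietal OF 2.17, 4.36, 5, 4.67 and 2.88 CPM. The parietal OF lay below every library of the other regions. Against it the SM was higher by 1.63 ± 0.25 (edgeR adjusted p = 1.1e-06), and against the frontal OF the difference was -0.06 ± 0.24 (edgeR adjusted p = 0.97). The summed level of 9 endothelial markers had the same layout at E18.5, at 266 to 345 CPM in the SM, 199 to 465 CPM in the frontal OF and 60.8 to 105 CPM in the parietal OF, and 9 of 9 were called higher in the SM than in the parietal OF. At E16.5 the sums of the 3 regions overlapped. The part of endothelial cells in the Msx1 values was not tested. At E16.5 the corresponding differences were 0.73 ± 0.25 (edgeR adjusted p = 0.018, higher in 5 of 5 embryos, overlapping groups) and -0.07 ± 0.25 (edgeR adjusted p = 0.87). Without embryo 4 the first of these fell to 0.49 (edgeR adjusted p = 0.17), and with each suture fitted by itself it stayed at 0.73 (0.19).

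The sequences around the start of both Msx genes are shown because these genes moved in the same direction in the frontal, sagittal and coronal parietal pairs, while only Msx2 did so at the lambdoid suture. Each is the RefSeq window from 250 bases before to 50 bases after the gene start, read 5′ to 3′ on the gene's own strand (build GRCm38.p6), Msx1 at chr5:37824536-37824835 and Msx2 at chr13:53472731-53473030, both minus strand. The Msx1 window spanned the start of the gene as counted. The Msx2 window lay wholly inside the gene as counted, whose start was at base 53473074. Capitals mark TAATTA, a palindromic homeodomain core motif that was searched for on both strands.
Msx1: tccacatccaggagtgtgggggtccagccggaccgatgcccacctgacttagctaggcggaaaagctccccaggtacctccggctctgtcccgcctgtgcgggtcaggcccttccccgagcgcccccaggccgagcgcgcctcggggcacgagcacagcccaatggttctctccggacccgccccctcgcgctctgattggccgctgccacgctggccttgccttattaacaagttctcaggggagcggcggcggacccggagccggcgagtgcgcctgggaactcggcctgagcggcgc
Msx2: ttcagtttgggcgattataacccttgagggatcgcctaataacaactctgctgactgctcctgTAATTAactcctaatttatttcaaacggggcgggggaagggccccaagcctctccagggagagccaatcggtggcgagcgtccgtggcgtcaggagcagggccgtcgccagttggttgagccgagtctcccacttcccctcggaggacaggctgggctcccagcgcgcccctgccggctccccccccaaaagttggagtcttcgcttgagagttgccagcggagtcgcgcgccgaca
The Msx2 window held TAATTA 1 time and the Msx1 window 0 times, and 5.29% of 32851 RefSeq mouse windows of this length held it. GGCGCC, a palindrome also searched for on both strands, was in neither window, and 11.9% of windows held it. The GC content was 70% for Msx1 and 61% for Msx2. The table held windows for 4 of the 7 genes.

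Dlx3, on chr11:95120119-95125296 (plus strand), had the largest SM and OF differences of the 7 genes. In the sagittal suture at E16.5 the SM libraries held 0.192, 0.19, 0, 0.0628 and 0.422 CPM, and the OF libraries 43.2, 44.3, 41.6, 50.3 and 46.1 CPM. In the coronal suture at E16.5 the SM held 3.93, 8.75, 8.71, 1.17 and 0.845 CPM, the frontal OF 289.9, 129, 285, 113 and 52 CPM, and the parietal OF 159.9, 255, 167, 195 and 287 CPM. No SM library overlapped an OF library of its own suture and stage in any of the 12 pairs, and all 5 embryos had the SM lower in each pair. The differences ran from -8.03 ± 0.73 in the sagittal suture at E16.5 (edgeR adjusted p = 1.4e-13) to -3.96 ± 0.54 against the coronal frontal OF at E18.5 (edgeR adjusted p = 4.4e-07), with a median of -5.54. All 12 remained past the threshold under each of the 16 alternative settings tried. The lambdoid SM was uneven, with 1.97, 14.1, 3.98, 0.743 and 1.6 CPM at E16.5 and 0, 0, 0.856, 0 and 0.916 CPM at E18.5. The second embryo at E16.5 stood apart from the other 4 there.

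Dlx3 is also an epidermal gene, so keratinocyte markers were read in the same libraries. The summed level of 9 such markers lay between 2.47 and 33.3 CPM in the SM libraries (median 6.05) and between 1.15 and 28.8 CPM in the OF libraries (median 8.89), with overlapping ranges. Over the mean of the 12 pairs, 5 of the 9 were tested and 2 were lower in the SM, Perp by -3.00 ± 0.39 (edgeR adjusted p = 1.1e-09) and Sfn by -0.70 ± 0.19 (edgeR adjusted p = 0.0012). Krt1 and Krt10 did not pass (edgeR adjusted p = 0.71 and 0.48). The part of these markers in the Dlx3 values was not tested.

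Dlx5 (chr6:6877805-6882085, minus strand) and Dlx6 (chr6:6863334-6868568, plus strand), the linked pair, were lower in the SM at the frontal, sagittal and lambdoid sutures. The frontal suture at E16.5 held the largest Dlx5 difference. Its SM libraries were at 26.8, 12.5, 17.6, 17.9 and 17.6 CPM of Dlx5 and its OF libraries at 78.2, 58.4, 69.7, 86.4 and 83.9 CPM. For Dlx6 the same libraries held 0.97, 0.328, 0.995, 1.44 and 0.953 CPM in the SM and 7.01, 7.06, 7.7, 5.31 and 7.44 CPM in the OF. Neither gene's groups overlapped, and the differences were -2.05 ± 0.18 for Dlx5 (edgeR adjusted p = 3.9e-14) and -2.97 ± 0.40 for Dlx6 (edgeR adjusted p = 6.6e-08). At E18.5 they were -1.46 ± 0.18 (edgeR adjusted p = 3.3e-09) and -3.31 ± 0.43 (edgeR adjusted p = 1.7e-08). In the sagittal and lambdoid pairs Dlx5 fell by 0.95 to 1.38 on the log2 scale, with no overlap in any of the 6. Dlx6 was lower in 5 of those 6 pairs, from -1.81 ± 0.37 in the sagittal suture at E16.5 (edgeR adjusted p = 0.00014) to -1.20 ± 0.39 against the lambdoid parietal OF at E18.5 (edgeR adjusted p = 0.016). The last of these had a value of -0.97 (adjusted p = 0.064) without the embryo block and lost its call without embryo 1, 2 or 3 (0.082, 0.1 and 0.1), as did the sagittal E18.5 pair without embryo 4 (-1.14, 0.052). The lambdoid interparietal OF at E18.5 gave -0.85 ± 0.38 for Dlx6 (edgeR adjusted p = 0.11).

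The coronal suture was different for this pair. At E18.5 Dlx5 held 62.5, 75.7, 60.2, 95 and 70.8 CPM in the coronal SM, 57.1, 73.1, 77.8, 68.5 and 55.2 CPM in the frontal OF, and from 82.1 to 116 CPM in the parietal OF. The SM overlapped the frontal OF, with the SM library at 95 CPM above every frontal OF library, and the parietal OF lay above the frontal OF. Against the frontal OF the SM differed by 0.12 ± 0.17 at E18.5 (edgeR adjusted p = 0.85) and by -0.20 ± 0.17 at E16.5 (edgeR adjusted p = 0.39). Against the parietal OF Dlx5 was lower in the SM by -0.51 ± 0.17 (edgeR adjusted p = 0.026) and -0.54 ± 0.17 (edgeR adjusted p = 0.01), with overlapping groups and 5 of 5 embryos in that direction. Both calls were lost without single embryos, at E18.5 without embryo 1, 2, 4 or 5 (edgeR adjusted p between 0.078 and 0.17) and at E16.5 without embryo 1, 3 or 4 (0.061, 0.12 and 0.07), and both were lost without TMM scaling (-0.22 and -0.36, adjusted p 0.48 and 0.16). Dlx6 passed in none of the 4 coronal pairs. At E18.5 it held 3, 13.3, 4.22, 4.72 and 6.84 CPM in the SM, 5.4, 13.1, 3.45, 4.7 and 5.24 CPM in the frontal OF, and 25, 7.08, 7.28, 10.1 and 8.44 CPM in the parietal OF, with overlap between all 3 regions. The differences from the frontal and parietal OF were 0.41 and -0.23 on the log2 scale at E16.5, with 0.05 and -0.94 for the later stage, and the last of these passed only without embryo 2 (-1.30, edgeR adjusted p = 0.013) or with a single dispersion for all genes (-0.85, 0.013).

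**Figure D2:**
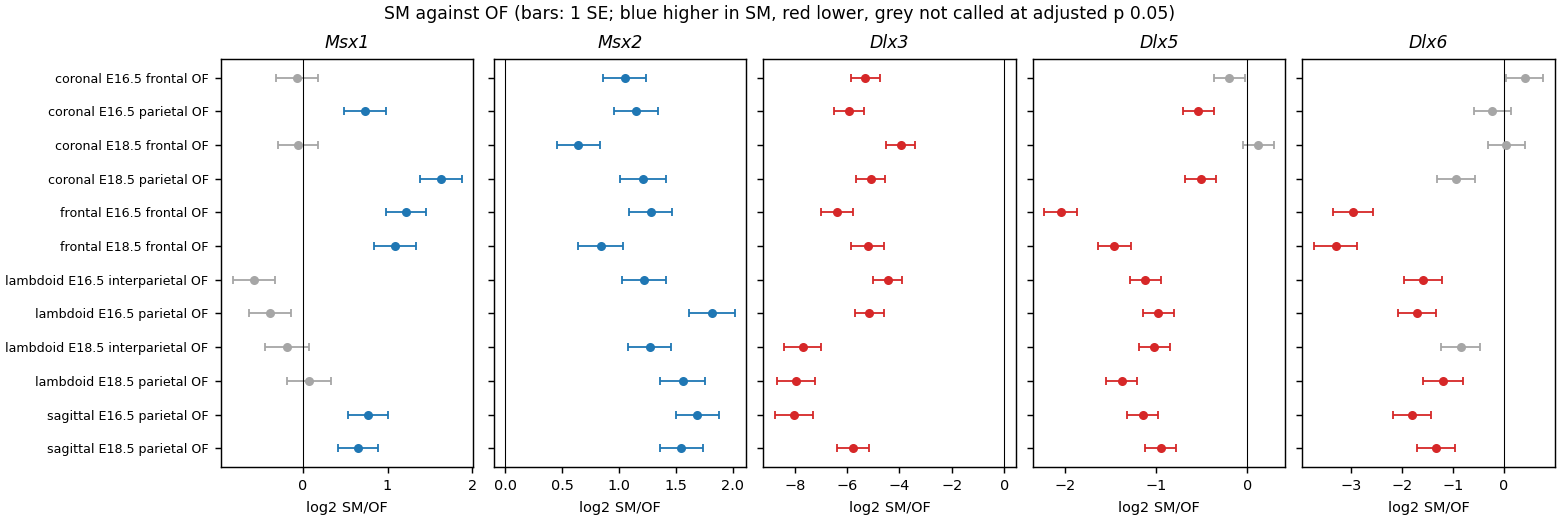
Log2 difference of SM from OF (horizontal axis, points with bars of 1 SE) in 12 pairs for Msx1, Msx2, Dlx3, Dlx5 and Dlx6. Blue marks an SM level called higher, red one called lower and grey one not called at an adjusted p of 0.05; Msx2 is blue and Dlx3 red in 12 of 12 pairs, and the 4 coronal pairs of Dlx5 lie between -0.54 and 0.12, nearer 0 than its other pairs, with those of Dlx6 between -0.94 and 0.41.

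Averaged over the 12 pairs, 5 of the 6 genes tested passed, against 55.8% of all genes. The mean SM and OF difference was 0.41 ± 0.08 for Msx1 (edgeR adjusted p = 2.4e-05), 1.27 ± 0.06 for Msx2 (1.6e-26), -5.91 ± 0.23 for Dlx3 (1.3e-31), -0.94 ± 0.06 for Dlx5 (1.4e-21) and -1.29 ± 0.13 for Dlx6 (4.1e-13). Dlx1 came to 0.72 ± 0.45 (0.17). The median over all genes was 0.05.

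The difference between the coronal suture and the other 3 was then tested itself, as the mean coronal SM and OF difference less the mean of the other sutures. Here 4 of the 6 genes passed, against 19.8% of all genes, and the median over all genes was 0.09. Dlx6 gave 1.67 ± 0.26 (edgeR adjusted p = 2.3e-06) and Dlx5 0.98 ± 0.12 (edgeR adjusted p = 6.4e-09), so that the fall of both in the SM was smaller at the coronal suture, and both calls held under the 15 alternatives that could give this contrast (all but each suture fitted by itself). Dlx3 gave 1.26 ± 0.43 (edgeR adjusted p = 0.028), which was 0.99 (adjusted p = 0.18) without replicate 3 of each group and 0.76 (0.3) without replicate 4. Msx2 gave -0.39 ± 0.14 (edgeR adjusted p = 0.041), a smaller rise at the coronal suture, which was -0.40 (0.059) without the embryo block and lost its call without replicate 1, 3 or 5 (0.24, 0.14 and 0.09). Msx1 gave 0.23 ± 0.18 (edgeR adjusted p = 0.41). The coronal embryos were not those of the other sutures, although some shared a litter code with embryos of the frontal suture. The coronal first libraries also held more counted reads, from 20133332 to 34518477, against 7305627 to 18450955 in the first libraries of the other sutures. These ranges did not overlap, so in this contrast the coronal suture cannot be told apart from its set of libraries. The part of litter and of library set in these values was not tested. The summed cartilage markers had a median of 109.6 CPM in the coronal SM at E16.5 and 274 CPM at E18.5. In the other SM these medians ran from 341 to 463 CPM and from 271 to 377 CPM. The muscle sum had medians of 1.76 and 2.71 CPM in the coronal SM, against 14.8 to 72.9 CPM in the other SM. The part of these cells was not tested.

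The osteogenic fronts of different bones at 1 suture were compared next, frontal less parietal at the coronal suture and interparietal less parietal at the lambdoid suture. Of 24 tests 3 passed (12.5%), all at the coronal suture, against 4.03% of all genes over the same 4 contrasts (9.05% at E16.5 and 6.1% at E18.5 for the coronal suture alone). Msx1 was higher in the coronal frontal OF than in the parietal OF at both stages. At E18.5 every frontal OF library, from 11 to 14.2 CPM, stood above every parietal OF library, from 2.17 to 5 CPM, and the difference was 1.69 ± 0.25 (edgeR adjusted p = 3.7e-06), held without any single embryo. Of the 9 endothelial markers 8 were also called higher in the frontal OF here (median log2 difference 1.93, against -0.26 at E16.5). At E16.5 the frontal OF held 15.9, 6.69, 23.6, 8.67 and 9.7 CPM and the parietal OF 5.26, 9.4, 13.9, 4.23 and 4.81 CPM. The ranges overlapped and embryo 2 went the other way, and the difference of 0.80 ± 0.25 (edgeR adjusted p = 0.033) lost its call without embryo 1, 3, 4 or 5 (0.12, 0.081, 0.054 and 0.084). It also lost its call with each suture fitted by itself (0.80, edgeR adjusted p = 0.45).

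Dlx5 went in the other direction. It was lower in the coronal frontal OF at E18.5 by -0.63 ± 0.17 (edgeR adjusted p = 0.013), with no overlap and 5 of 5 embryos lower. This call was lost without embryo 1, 4 or 5 (0.13, 0.16 and 0.098) and without TMM scaling (-0.40, 0.27). At E16.5 the difference was -0.33 ± 0.17 (edgeR adjusted p = 0.2), also without overlap. Msx2 at E18.5 was at 0.57 ± 0.19 for frontal less parietal (edgeR adjusted p = 0.062) and passed by DESeq2 and limma-voom (adjusted p = 0.016 and 0.017). In the main edgeR fit none of the 6 genes passed between the interparietal and parietal OF of the lambdoid suture at either stage (2 of 12 tests had an unadjusted p under 0.05). In that fit 0.966% of all genes passed there at E16.5 and 0.0152% at E18.5. Some alternatives gave calls at E16.5. Msx2, at 0.60 in the main fit (edgeR adjusted p = 0.14), passed by DESeq2 (0.63, adjusted p = 0.043). By edgeR it passed with each suture fitted by itself (0.60, adjusted p = 0.02) and without embryo 5 (0.85, 0.027). Dlx3 passed by edgeR with no filter on low counts (-0.69, adjusted p = 0.027).

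**Figure D3:**
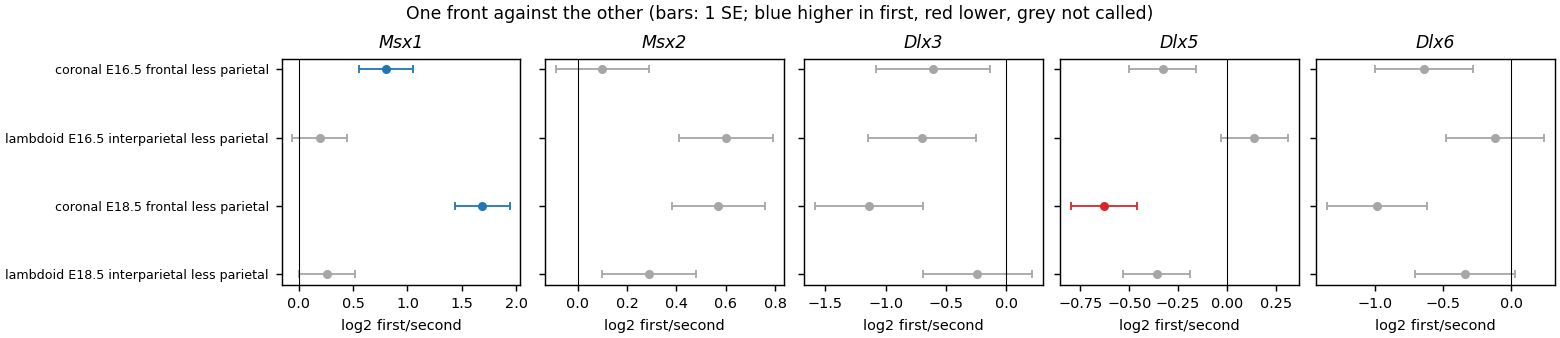
Log2 difference between the 2 osteogenic fronts of the coronal and lambdoid sutures (horizontal axis, points with bars of 1 SE) for 5 genes, with colours as for SM and OF. Msx1 is higher in the coronal frontal OF at both stages, by 0.80 and 1.69, and Dlx5 is lower there at E18.5, by 0.63.

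Between E16.5 and E18.5, 7 of 60 tests passed (11.7%), against 8.58% of all genes in the same 10 contrasts, a share near the background. Stage went with litter, and these cannot be told apart. Of the 7 calls 5 were at the coronal suture, where the share of all genes that passed was also high (20.6% to 27.1% by region). Which suture held the calls depended on the fit. With each suture fitted by itself 3 of these coronal calls were lost and 8 sagittal ones appeared, among them Msx1 in the SM (-0.75, edgeR adjusted p = 0.00052) and Dlx5 in the parietal OF (-0.53, 0.00053). Dlx3 fell in the coronal frontal OF from the values above to 25.8, 83.7, 32.3, 28.3 and 22.6 CPM, a change of -2.17 ± 0.48 (edgeR adjusted p = 0.00044), with embryo 2 at E18.5 inside the E16.5 range. In the coronal parietal OF it fell to 78.9, 114, 71.7, 73.2 and 57.1 CPM, by -1.43 ± 0.47 (edgeR adjusted p = 0.022), without overlap, a call lost without replicate 3 or 5 (0.054 and 0.069). Second coronal libraries in place of the first gave -1.21 (edgeR adjusted p = 0.085) for the frontal OF and -0.90 (0.25) for the parietal OF. The fall of Dlx3 in the lambdoid SM, -3.58 ± 0.81 (edgeR adjusted p = 0.003), became -2.18 (0.23) without replicate 2, which held the 14.1 CPM library. Msx1 fell in the coronal parietal OF by -0.98 ± 0.28 (edgeR adjusted p = 0.0084), with -0.76 (0.067) without replicate 3, -0.43 (0.51) with second coronal libraries in place of the first and an adjusted p of 0.2 with each suture fitted by itself.

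Dlx5 fell in the coronal frontal OF, from 112, 103, 113, 110.4 and 96.4 CPM at E16.5 to 57.1, 73.1, 77.8, 68.5 and 55.2 CPM at E18.5. The stages did not overlap, and the change of -0.69 ± 0.17 (edgeR adjusted p = 0.0017) became -0.26 (0.32) without TMM scaling. Msx2 fell in the frontal SM, from 76.2, 53.2, 80.4, 52.9 and 74.4 CPM to 40.4, 45.9, 37.6, 32.2 and 39.8 CPM. These too did not overlap. The change was -0.78 ± 0.22 (edgeR adjusted p = 0.027), a call lost without replicate 1, 3, 4 or 5 (0.073, 0.22, 0.081 and 0.088). Whether the SM and OF difference itself changed with stage was tested in 36 interaction terms, of which 1 passed (2.78%), against 1.88% of all genes. That 1 was Dlx1 in the coronal frontal OF, described with Dlx1.

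The same bone could be read at different sutures, the frontal OF at the frontal and coronal sutures and the parietal OF at the sagittal and lambdoid sutures. Of 24 tests 8 passed (33.3%), against 19.3% of all genes. Msx1 in the parietal OF was higher at the sagittal suture, with 33.4, 22.1, 32.5, 34.9 and 34.9 CPM at E16.5 against 5.53, 7.75, 6.96, 9.9 and 10.5 CPM at the lambdoid suture. The groups did not overlap at either stage, and the differences of 1.95 ± 0.28 (edgeR adjusted p = 1.4e-07) and 1.77 ± 0.29 at E18.5 (edgeR adjusted p = 1.5e-06) held under the 14 alternatives that could give them (neither the fit of each suture by itself nor the one on the block could). The libraries of complete sutures showed that the Msx1 level also moved between library sets. Those with the title prefix control_S were at 49.3 CPM in the sagittal and 17.6 CPM in the lambdoid suture, and those with control_L at 23.8 and 6.18 CPM, so that the sagittal level was the higher within each set. The sutures came from different embryos, so in all 24 of these tests suture cannot be told apart from embryo or library set. Embryos that shared a litter code entered as separate replicates. Msx2 was lower in the frontal OF of the frontal suture than in that of the coronal suture at E18.5, by -0.86 ± 0.22 (edgeR adjusted p = 0.0023), without overlap. In control_C, control_IF, control_L and control_S the complete frontal suture held 34.3, 21.4, 37.7 and 31 CPM of Msx2. The complete coronal suture held 33.7, 25.7, 26.1 and 31.5 CPM, so their order varied by set. The coronal E18.5 frontal OF was at 37.4 CPM in first and 56.3 CPM in second libraries of the same embryos. The part of library set in the Msx2 difference was not tested.

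The Dlx3 and Dlx5 calls of this kind at E16.5 did not hold under every setting, and that of Dlx1 is described with Dlx1. Dlx3 in the frontal OF was lower at the frontal suture by -1.45 ± 0.47 (edgeR adjusted p = 0.012), with -1.15 (0.11) without replicate 3 and -0.57 (0.43) with second coronal libraries in place of the first. Dlx3 in the parietal OF was lower at the sagittal suture by -1.55 ± 0.48 (edgeR adjusted p = 0.018), which without replicate 1, 2 or 3 was -1.54 (0.072), -1.22 (0.097) and -1.36 (0.14). Dlx5 was lower in the frontal OF of the frontal suture by -0.51 ± 0.17 (edgeR adjusted p = 0.016), which without TMM scaling was 0.06 (0.85) and without replicate 3 was -0.46 (0.055). In the parietal OF Dlx5 was higher at the sagittal suture by 0.55 ± 0.17 (edgeR adjusted p = 0.022), with 0.47 (0.15) without replicate 4.

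Dlx1 (chr2:71528113-71533981, plus strand) and Dlx2 (chr2:71543408-71546754, minus strand) were at or near 0 in most libraries. Dlx1 was at 0 counts in 53 of the 100 first libraries and above 1 CPM in 14. It was found in all 5 libraries of the frontal SM at E16.5, at 1.49, 1.45, 0.853, 0.0801 and 0.953 CPM, and elsewhere mostly in some embryos of a group. In the sagittal suture at E18.5 the 5 embryos held 3.76, 3.29, 5.5, 0 and 0.0634 CPM of Dlx1 in the SM and 4.06, 1.92, 4.05, 0 and 0 CPM in the OF. The first 3 embryos were high in both regions and the others were at or near 0. The first 3 shared a litter code and the others shared another, so this split cannot be told apart from litter. The summed level of 10 neuron markers in those libraries was 156, 151, 189, 27 and 23.3 CPM in the SM and 132, 62.3, 103, 22.5 and 26.6 CPM in the OF, so it was high in the same embryos. Its part in the Dlx1 values was not tested. Over all first libraries that sum ran from 10.5 to 189 CPM in the SM and from 6.48 to 132 CPM in the OF. The 4 libraries of complete sagittal sutures at E18.5 held 0 to 0.102 CPM of Dlx1.

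In the coronal suture at E16.5 Dlx1 held 0, 5.12, 0, 0 and 0.362 CPM in the SM and 0 in each of the 5 frontal OF libraries. The call of the SM as higher (edgeR adjusted p = 0.03) rested on the second embryo, and without it the adjusted p was 0.32 (0.092 without embryo 5, and 0.35 by DESeq2). The neuron sum of that SM library, 74.9 CPM, was below that of embryo 5, at 109 CPM. Since the frontal OF was at 0 throughout, its fitted fold changes are no bound. The same group of zeros entered the rise of Dlx1 in the coronal frontal OF with stage (edgeR adjusted p = 0.019; 0.055 and 0.1 without replicate 3 and 5), the stage by region call (edgeR adjusted p = 0.047; 0.057, 0.33 and 0.15 without replicate 1, 2 and 5) and the difference of the frontal OF between the frontal and coronal sutures at E16.5 (edgeR adjusted p = 0.0035). In that last comparison the frontal suture held 0, 2.24, 1.16, 1.33 and 0.286 CPM. Dlx1 shared 335 exon bases, 6.21% of its length, with the antisense gene Dlx1as, and the reads were counted without strand, so reads in that stretch cannot be assigned to either.

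**Figure D4:**
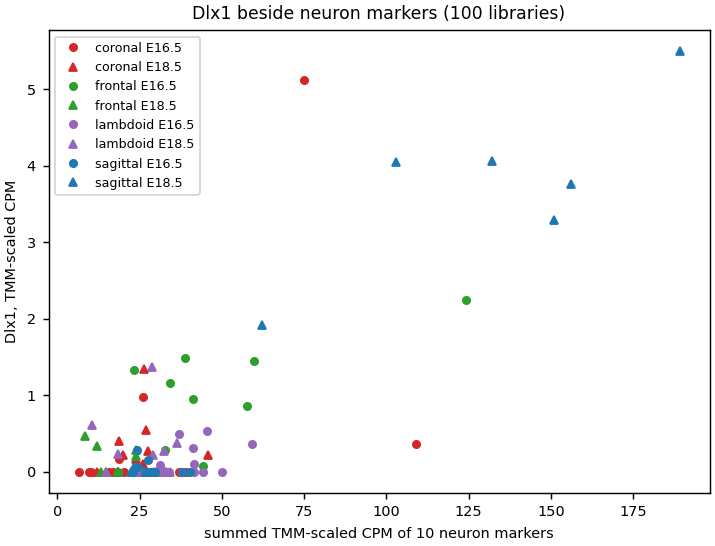
Dlx1 level (vertical axis, CPM) against the summed level of 10 neuron markers (horizontal axis, CPM) in the 100 first laser-captured libraries, 1 point each. The sagittal E18.5 libraries with 1.92 to 5.5 CPM of Dlx1 have neuron sums from 62.3 to 189 CPM, and 1 coronal E16.5 SM library has 5.12 CPM of Dlx1 at a sum of 74.9 CPM.

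Other genes of the pathway were read from lists, as counts over the mean of the 12 SM and OF pairs, beside the 55.8% of all genes called there and a median of 0.05 for all genes. Of 5 BMP ligands 1 was higher in the SM and 3 lower. The osteogenic ligand Bmp2 was at -1.91 ± 0.10 (edgeR adjusted p = 4.9e-26), Bmp4 at -0.44 ± 0.10 (0.00011) and Bmp7 at -0.70 ± 0.11 (1.2e-07), while Bmp5 was at 1.44 ± 0.15 (2.9e-12). Of 7 BMP receptors and Smad transducers 2 were lower, Smad9 at -1.86 ± 0.08 (edgeR adjusted p = 2.1e-29) and Smad1 at -0.19 ± 0.05 (0.0022). The secreted BMP antagonists went both ways, with 2 of 6 higher, Grem1 at 2.29 ± 0.26 (2.3e-11) and Chrd (4.2e-08), and 3 lower, among them the modulator Bmper at -2.61 ± 0.13 (4.6e-26). Of 7 genes known to respond to BMP signalling, 4 were lower and none higher at an edgeR adjusted p of 0.05. These were the pseudoreceptor Bambi at -2.59 ± 0.10 (4.8e-32), the differentiation inhibitors Id1 at -0.74 ± 0.10 (3.5e-09) and Id3 at -0.80 ± 0.05 (1.7e-20), and the inhibitory Smad6 at -0.37 ± 0.12 (0.0051). The other 3 were not called, the list median was -0.37, and the share called was near that of all genes.

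All 12 genes of an osteoblast list were lower in the SM, with a median of -2.98, among them the transcription factor Sp7 at -3.13 ± 0.10 (edgeR adjusted p = 3.5e-36) and the mineralisation enzyme Alpl at -3.45 ± 0.10 (7.7e-37). Of 13 transcription factors of calvarial mesenchyme 9 were higher and none lower, with a median of 0.66, among them Six2 at 1.85 ± 0.08 (1.9e-30), Zic1 at 1.11 ± 0.05 (8.5e-27) and the craniosynostosis gene Twist1 at 0.80 ± 0.06 (1.1e-18). Dlx3 at -5.91 lay beyond the osteoblast list's median and Dlx5 and Dlx6, at -0.94 and -1.29, short of it. Of markers of other cell types, 10 of 10 macrophage markers were higher in the SM, against the 55.8% of all genes called in either direction. The other lists were near or below that share. Of 8 cartilage markers 4 were higher and 1 lower, of 7 muscle markers 3 were higher, of 6 erythroid markers 3 were higher, of 7 neuron markers 2 were higher and 1 lower, of 9 endothelial markers 2 were lower, and of 5 keratinocyte markers 2 were lower. The summed cartilage level was 93.3 to 549 CPM in the SM (median 341) and 57.7 to 280.1 CPM in the OF (median 127), and the macrophage sum 89.6 to 473 CPM (median 228) and 80.5 to 284 CPM (median 174). The muscle sum had a median of 22.4 CPM in the SM and 4.17 CPM in the OF, and the erythroid sum 621 CPM (75.7 to 6828) and 277 CPM (42.4 to 18716). By group the muscle sum was highest in the sagittal and lambdoid SM at E16.5, with medians of 72.9 and 62.3 CPM, which were also the groups with the highest Msx2. The part of these cells in the Msx and Dlx values was not tested.

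Among the antisense partners, Dlx1as was at 0.69 ± 0.21 (edgeR adjusted p = 0.0044) and Dlx6os1 at -0.27 ± 0.11 (0.029) in the mean of the 12 pairs. Msx3 and Dlx4, the remaining family members, did not pass the filter and reached at most 1.18 and 3.68 CPM. Across the 20 group means of log2 levels Dlx5 and Dlx6 followed each other most closely of the 6 genes tested (Pearson r = 0.91), and Dlx6 was the second nearest of all tested genes to Dlx5 after Ift57 (r = 0.914). Dlx3 had r = 0.77 with Dlx5 and 0.71 with Dlx6, and Msx2 and Dlx3 had r = -0.79. Msx1 and Msx2 had r = 0.37. The genes most like Dlx3 were Slc8a3 (r = 0.988), Lipi (0.985) and the bone sphingomyelinase Smpd3 (0.985). Serpini1 (0.936) was most like Msx2, Mrps6 (0.851) most like Msx1, and the neuronal transcription factor Neurod6 (0.939) most like Dlx1. These are descriptions over 20 groups whose SM and OF libraries share embryos.

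The second coronal libraries came from 3 of the 5 embryos of each coronal group. Msx1 was higher in them than in the first libraries of the same embryos in all 6 groups, with means of 38 against 12.8 CPM in the E16.5 SM, 33.1 against 15.6 CPM in the E16.5 frontal OF and 26.6 against 11.7 CPM in the E18.5 frontal OF. Msx2 was also higher in all 6 groups, with 83 against 53.8 CPM in the E18.5 SM and 46.2 against 27.8 CPM in the E18.5 parietal OF. For Msx1 the order of frontal over parietal OF was kept, with parietal OF means of 11.8 and 8.81 CPM at E16.5 and E18.5. Dlx3 went the other way in the E16.5 OF, with 100.4 against 237 CPM in the frontal OF and second libraries at 110.1, 93.1 and 98.8 CPM against a first mean of 195 CPM in the parietal OF, and its E16.5 SM was at 8.04 against 7.11 CPM. Dlx5 in the E16.5 frontal OF was at 125 against 111 CPM and in the parietal OF at 113 against 137 CPM, so that the order of these fronts turned in the second libraries. At E18.5 the Dlx5 difference between fronts was -0.43 (edgeR adjusted p = 0.11) with second libraries in place of the first where an embryo and region had one. That fit mixed both sets. Second libraries covered embryos 1, 3 and 5 in the frontal OF and 1, 3 and 4 in the parietal OF.

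Complete dissected sutures at E18.5 had 4 libraries each, all with the replicate number 1, so they may be repeat libraries of 1 sample and their spread may be technical. They gave a median of 34.7 CPM of Msx1 in the sagittal, 29.5 in the frontal, 16.8 in the coronal and 9.37 in the lambdoid suture. Msx2 stood at medians of 84.1 CPM in the sagittal, 52.7 in the lambdoid, 32.6 in the frontal and 28.8 in the coronal suture. Every sagittal library, from 23.8 to 49.3 CPM for Msx1, was above every lambdoid library, from 6.18 to 17.6 CPM. Dlx3 was highest in the coronal suture, at 39.9 to 56.1 CPM, and did not overlap the lambdoid (26.8 to 33.5), sagittal (10 to 13.8) or frontal (8.96 to 11.6) sutures. Dlx6 was also highest there, at 7.68 to 14.5 CPM against at most 5.13 CPM in any library of the other 3. Dlx5 had medians of 68.5 CPM in the coronal and 26.6 to 52.8 CPM in the others. A complete suture mixes SM and OF in unknown parts, and no test was made on these libraries.

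Single cells of the coronal suture gave the same genes per cell class. Barcodes numbered 1530 and 1482 in the E16.5 libraries, of which 466 and 337 were kept as cells, and 2628 and 1999 in the E18.5 libraries, of which 2412 and 1577 were kept. The labels give the later pair as E18.5, while their deposited files are named for E16, and the labels were followed. The barcodes shared between the libraries of a stage were 1 and 5. Cells were clustered without the 7 genes, and clusters were named from marker lists. The E18.5 libraries fell largely into different clusters, with 3 cells of library 1 among the 322 of 1 osteoblast-like cluster and 111 of the 150 of the other, and their median UMIs per cell differed, at 18476 and 7131. The libraries are therefore given side by side, with no test between classes and no comparison of stages. Intervals are exact 95% Poisson intervals and cover counting error only.

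Among the named classes at E18.5, Dlx3 was at its highest in the osteoblast-like cells in both libraries. In these 114 and 358 cells it stood at 36.3 UMI CPM (UMIs scaled to the total UMIs of the class; 29.5 to 44.1) in library 1 and 27.9 (22.3 to 34.5) in library 2, and in the other suture cells, 1836 and 1000 in number, at 1.61 (1.24 to 2.04) and 3.18 (2.08 to 4.66). The other suture cells included unnamed clusters of 523 and 385 cells with Mmp13 among their leading genes. Mmp13 was on the osteoblast marker list, so this comparison, for every gene, was not one of osteoblasts against other cell types. The other suture cells also held dura mater-like clusters of 384 and 311 cells. No cluster was named suture mesenchyme, and a cluster of 377 cells with Hhip among its leading genes stayed unnamed. The comparison is therefore not a counterpart of the SM and OF pairs. No other named class had more than 3.91 UMI CPM of Dlx3 in either library. The Msx genes had the opposite pattern. Msx1 was at 10.1 (6.68 to 14.5) and 14.6 (10.7 to 19.6) UMI CPM in osteoblast-like cells and at 83.6 (80.8 to 86.4) and 66.8 (61.3 to 72.6) in the other suture cells. Msx2 was at 2.87 and 5.52 in osteoblast-like cells and at 39 (37.1 to 40.9) and 25.9 (22.5 to 29.7) in the others. The macrophage-like cells, which should lack these genes, held 9.22 and 13.4 UMI CPM of Msx1, 4.61 and 0 of Msx2 and 2.02 and 0 of Dlx3. With this clustering Msx1 in the osteoblast-like cells was near the macrophage-like values. At a clustering resolution of 1.2 its log2 ratio to the other suture cells was -1.07 in place of -2.53. Among the other suture cells the dura mater-like class held 109 and 74.1 UMI CPM of Msx1 and 59.2 and 36.5 of Msx2.

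Dlx5 and Dlx6 were not restricted in this way. Dlx5 stood at 42.4 and 51.3 UMI CPM in the osteoblast-like cells and 69 and 81.2 in the other suture cells, and Dlx6 at 23.7 and 15.3 against 29.3 and 22. The direction of both depended on the clustering, as the osteoblast-like class drawn at a finer resolution was level or higher (log2 0.07 for Dlx5 and 0.54 for Dlx6 over both libraries, against -0.67 and -0.40). Among the named classes the highest Dlx5 level was in pericyte-like cells, 254 (208 to 308) and 121 (83.6 to 170), from 29 and 27 cells. In the macrophage-like cells it was 10.7 and 31.4. Dlx6 was at 36.8 and 22.5 in the proliferating-like cells and at 36 and 29.4 in the pericyte-like cells, against 2.3 (0.995 to 4.54) and 0 in the 190 and 20 macrophage-like cells. Dlx1 gave 2 UMIs and Dlx2 4 UMIs in 3308 suture cells.

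Shares of cells followed the levels. With each cell thinned to 3500 UMIs, Dlx3 was found in 9.65% and 7.54% of osteoblast-like cells of the E18.5 libraries and in 0.545% and 1% of the other suture cells (58.8% and 19.3% against 3.49% and 2.4% without thinning). In the macrophage-like cells the thinned share was 1.05% in library 1 and 0 of 20 cells in library 2, which allows a share of up to 15%. Msx1 was found after thinning in 2.63% and 5.59% of osteoblast-like and, of the other suture cells, in 24.5% of library 1 and 185 of 1000 cells of library 2 (exact binomial interval 16.1% to 21%). At E16.5 the cells were few and shallow. The 40 osteoblast-like cells of both libraries held 7 UMIs of Dlx3, 12 of Dlx5, 2 of Dlx6, 1 of Msx1 and 1 of Msx2, and the 385 other suture cells 1, 45, 10, 60 and 40. Those 385 included 123 hypodermis-like and 59 dura mater-like cells. Dlx1 and Dlx2 had 0 UMIs in 425 suture cells, which allows a share of cells with a UMI of up to 0.706%. The 112 macrophage-like cells held 0 UMIs of the 7 genes, which allows up to 2.68% for each.

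**Figure D5:**
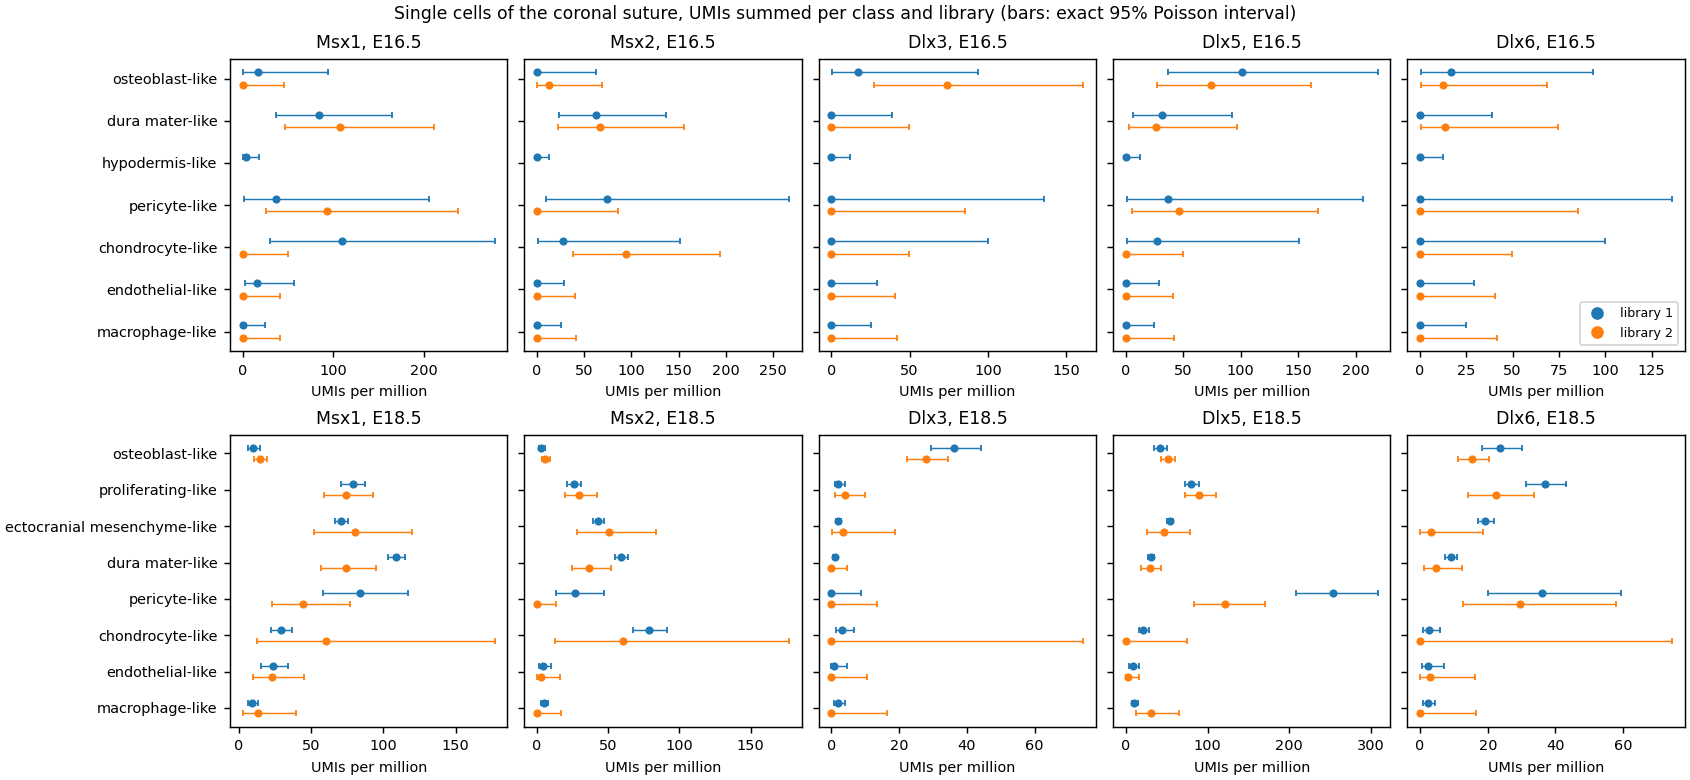
UMI CPM (horizontal axis) of Msx1, Msx2, Dlx3, Dlx5 and Dlx6 by cell class (vertical axis) in the 2 coronal libraries at E16.5 and at E18.5, with exact 95% Poisson intervals. At E18.5 Dlx3 is highest in the osteoblast-like class, at 36.3 and 27.9, where Msx1 (10.1 and 14.6) and Msx2 (2.87 and 5.52) are lower than in the dura mater-like class.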

How the data were processed

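Laser-captured regions were amplified with Ovation V2, made into Nextera XT libraries and sequenced, and the 134 bulk libraries were deposited by the authors as raw counts of read pairs per gene. Per the file headers and labels these came from STAR 2.5.3a alignments to mm10 and featureCounts 1.6.4 over GENCODE exons after cutadapt, without strand, 1 library per file. Amplification from small captures adds noise to genes of few molecules. The single-cell counts were deposited by the authors as unique molecular identifiers (UMIs) per gene and cell. A deposited table of log2 ratios holds the authors' own comparisons and was not used.

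The 7 genes, the lists and the tests were chosen with earlier results of these data known. The 100 first libraries were fitted together in edgeR 4.0.16 (R 4.3.3), with genes of at least 1 CPM in over 10% of libraries (19768), TMM scaling (factors 0.496 to 1.3) and the quasi-likelihood test, two-sided, with Benjamini-Hochberg adjustment over all genes and a threshold of 0.05. The embryo entered as a block in contrasts within embryos, since labels give regions of 1 embryo the same code (40 embryos). Residuals of regions from the same embryo had a median correlation of 0.0505 over 80 pairs, 21 of them over 0.1, against -0.0125 for other embryos. Stage and same-bone contrasts compared different embryos and had no block. The first model, with a single dispersion, made 177 false calls on simulated counts of 19768 genes (coronal E16.5 SM against frontal OF), so trended dispersions were used in its place (2 false calls, with 46 of 100 changes of 2-fold and 87 of 100 of 4-fold recovered). Values of the 7 genes under the first model had been seen by then, and that model was kept as an alternative added after seeing the data. The named genes were the 7 in every comparison, up to 4 examples per list with the smallest p in the mean contrast (1 example is not reported here), and the 3 genes with the highest correlation over the 20 group means.

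Cells with over 800 genes were kept within 3 median absolute deviations and clustered per stage in scanpy 1.11.5 (leidenalg 0.10.2, resolution 0.8) without the 7 genes. A cluster left unnamed was counted among suture cells when its leading genes held at least as many markers of suture classes as of others, a rule settled after the clusters were seen. Scrublet marked 9 and 28 cells (1.12% and 0.702%), which stayed in. Intervals and limits for counts cover counting error only. Alternatives were DESeq2 1.42.0, limma-voom 3.58.1, other scalings and filters, each suture by itself, second coronal libraries in place of or added to the first, and leaving out 1 replicate number at a time from every group. Second coronal libraries entered only for the embryos and regions that had one, and first libraries were kept for the rest. Dlx6 shares 104 exon bases (4.38%) with Dlx6os2.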

Additional observations from a re-analysis of the deposited data

Results flagged for a closer look

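In 20 of 140 sets of 5 libraries (7 genes in 20 groups) the highest or lowest library stood apart from the other 4 by more than 0.71 of the range. Chance alone sets about 1 in 20 such groups apart, and 10 of the 20 are Dlx1 or Dlx2, where a single count above 0 is enough. For Msx1 the library that stood apart was at 31.9 CPM in the frontal E16.5 SM (below the others), 13.8 in the lambdoid E16.5 SM (above), 22.1 in the sagittal E16.5 parietal OF (below) and 43.5 in the sagittal E18.5 SM (above). For Msx2 it was at 28.6 CPM in the lambdoid E18.5 interparietal OF, below the others. For Dlx3 it was at 83.7 CPM in the coronal E18.5 frontal OF and 14.1 in the lambdoid E16.5 SM, both above. For Dlx6 it was at 13.1 CPM in the coronal E18.5 frontal OF and 25 in the coronal E18.5 parietal OF, both above and from different embryos, and at 5.31 in the frontal E16.5 frontal OF, below. Dlx1 stood out at 5.12 CPM in the coronal E16.5 SM, 0.98 in the coronal E16.5 parietal OF, 0.499 in the lambdoid E16.5 SM, 0.358 in the lambdoid E16.5 parietal OF, 0.374 in the lambdoid E18.5 interparietal OF and 0.287 in the sagittal E16.5 SM. Dlx2 did so at 0.0504 CPM in the coronal E16.5 SM, 0.352 in the lambdoid E18.5 SM, 0.0914 in the lambdoid E18.5 parietal OF and 0.287 in the sagittal E16.5 SM. The embryo with 5.12 CPM of Dlx1 in the coronal E16.5 SM was also the one with 0.98 CPM in the parietal OF, and the sagittal E16.5 SM library that stood out for Dlx1 was the same one as for Dlx2. In that coronal embryo's second libraries Dlx1 was at 0.672 CPM in the SM and 2.95 CPM in the parietal OF. For Dlx6 the library at 25 CPM in the coronal E18.5 parietal OF had a second library at 4.41 CPM.

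The SM and OF difference was called different at the coronal suture from the other 3, by a test of the difference itself, for Dlx6 (1.67 on the log2 scale), Dlx5 (0.98), Dlx3 (1.26) and Msx2 (-0.39). The Dlx3 and Msx2 calls were lost under some alternatives, and those of Dlx5 and Dlx6 were not. A change of the SM and OF difference with stage was called for Dlx1 in the coronal frontal OF (-7.93 as fitted, which is no bound, since that group was at 0 counts at E16.5). This Dlx1 call was also lost under some alternatives.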

How the results depend on the processing

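Of the 72 SM and OF tests 48 passed, and 42 to 49 under the alternatives (42 to 44 with 1 replicate number left out). The mean of the 12 pairs kept 5 calls or gave 6. The 4 calls for the coronal suture against the others ranged from 2 to 4 with 1 replicate left out. The 3 calls between fronts became 5 by DESeq2, 6 of 28 with no filter on low counts, 6 with a single dispersion (added after seeing the data) and 1 to 4 with 1 replicate left out. The 1 stage by region call became 5 of 42 with no filter, 0 without TMM scaling, 0 with filterByExpr, 2 with a single dispersion, 3 with each suture by itself, 0 with second coronal libraries in place of or added to the first, and 0 to 2 with 1 replicate left out. The 7 stage calls became 11 with a single dispersion, 14 with each suture by itself, 3 with second coronal libraries in place of the first and 3 to 9 with 1 replicate left out. The same-bone calls numbered 6 to 9 against 8. The cause of these shifts was not tested. Dlx5 in the frontal OF at E16.5, frontal less coronal suture, turned from -0.51 to 0.06 without TMM scaling and was the 1 reversal. Without the embryo as a replicate block, 3 calls were lost (Msx1 in the sagittal E18.5 pair, 0.66; Dlx6 in the lambdoid E18.5 parietal pair, -0.97; Msx2 in coronal less other sutures, -0.40), and the other 141 tests within embryos stayed on their side of the threshold. With each suture by itself, Dlx3 passed for stage by region in the lambdoid interparietal (-3.30), lambdoid parietal (-2.82) and sagittal (2.37) pairs.

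In single cells the log2 ratio of osteoblast-like to other suture cells moved with the clustering and, at E16.5, with the library. At a clustering resolution of 1.2 it was, at E18.5, -1.07 for Msx1 (from -2.53), -1.45 for Msx2 (-2.71), 2.56 for Dlx3 (3.31), 0.07 for Dlx5 (-0.67) and 0.54 for Dlx6 (-0.40), and at E16.5 -5.40 for Msx2 (-3.57), 1.07 for Dlx3 (4.08) and -1.21 for Dlx6 (0.39). A minimum of 500 genes per cell gave 5.27 for Dlx3 at E16.5 and -0.74 for Dlx5 at E18.5, and leaving out cells called doublets gave -5.44 for Msx2 at E16.5, where the ratios rest on 40 osteoblast-like cells. With 1 library left out, the E16.5 ratios were -6.49 to -1.34 for Msx1 (from -3.91), -4.81 to -2.34 for Msx2, 4.00 to 4.15 for Dlx3, 0.23 to 1.53 for Dlx5 (0.88) and -0.55 to 1.32 for Dlx6, and the E18.5 ratios kept their sign. Dlx1 and Dlx2 had mostly 0 counts, so their folds are imprecise.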

Other observations

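Some of the other lists passed more often than all genes did between fronts or stages, and others did not. Over the 4 contrasts between osteogenic fronts, 2.11% of all genes were called higher and 1.92% lower in the front named first (frontal or interparietal). The 12 osteoblast genes were lower in 11 of 48 tests, the BMP antagonists lower in 5 of 24 and higher in 1, the BMP ligands higher in 3 of 20 and lower in 1, the calvarial transcription factors higher in 6 of 52 and lower in 4, and the endothelial markers higher in 8 of 36. The BMP response genes were lower in 2 of 28 tests, and no BMP receptor or Smad passed at an edgeR adjusted p of 0.05 in 28 tests (2 at an unadjusted p under 0.05). Over the 10 stage contrasts 4.43% of all genes were called higher at E18.5 and 4.14% lower. The BMP ligands were lower in 13 of 50 tests and higher in 2, the BMP receptors and Smads lower in 10 of 70 and higher in 1, the BMP antagonists lower in 9 of 60 and higher in 5, the calvarial transcription factors lower in 18 of 130 and higher in 2, and the osteoblast genes lower in 16 of 120 and higher in 14. The BMP response genes, lower in 4 of 70 and higher in 2, were near the share of all genes. Among markers of other cell types, macrophage markers were higher at E18.5 in 19 of 100 tests, and endothelial markers higher in 24 of 90 and lower in 8. Their part in the stage values of the Msx and Dlx genes was not tested.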
